A study of Mus musculus with 50 samples.

Results

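The genes described here were 10 regulators of cell-cycle arrest and senescence, picked by symbol from the 24984 gene rows of the count files. They were the CIP/KIP inhibitors Cdkn1a (p21), Cdkn1b (p27) and Cdkn1c (p57), the INK4 genes Cdkn2a (p16 and p19ARF), Cdkn2b (p15) and Cdkn2c (p18), and Trp53, Mdm2, Rb1 and Lmnb1. All 10 were found, and each was followed through the 38 RNA-seq libraries of 10 groups. Chromatin at their promoters was read from 12 ATAC-seq libraries of 4 groups, which gave 50 libraries in 14 groups in all.

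Cyclin-dependent kinases drive the cell cycle by phosphorylating the retinoblastoma protein Rb1, which otherwise holds E2F factors inactive. INK4 proteins bind Cdk4 and Cdk6 and keep D-type cyclins off them, while CIP/KIP proteins bind cyclin-kinase complexes more broadly. The tumour suppressor p53, encoded by Trp53, induces Cdkn1a and also Mdm2, the ubiquitin ligase that degrades p53. Cdkn2a encodes p16 from one promoter and, in another reading frame and from a promoter further upstream, p19ARF, which inhibits Mdm2. High p16 and low lamin B1, a protein of the nuclear lamina encoded by Lmnb1, are widely used marks of senescent cells.

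RNA was taken from untreated kidney and liver of young (2.5 months) and old (23 to 25 months) C57BL/6 mice, with 4 libraries per tissue and age. The same tissues and ages gave 3 ATAC-seq libraries per group. A second set of RNA libraries compared the vehicle DMSO with an agent labelled 3C, in kidney and liver of C57BL/6 mice aged 20 to 21 months (4 libraries per group) and in C57BL/6 skin fibroblasts labelled P9 (3 libraries per group). Neither the nature of 3C nor the meaning of P9 is given in the labels. Nor do they tell which libraries came from separate animals or cultures, so the p-values measure only the spread between libraries, which may be technical. Values of the young and old set are set beside those of the DMSO and 3C set without a test.

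The RNA libraries held 14.2 to 43.7 M reads counted in genes. Summed markers of hepatocytes reached 90240 to 327700 CPM (the count of a gene scaled to its library's size, with TMM factors over the 38 libraries) in liver. Proximal tubule markers reached 4737 to 9840 CPM in the young and old kidneys, and the fibroblast libraries held 13160 to 18090 CPM of stromal markers such as Col1a1 and Dcn, so the labelled tissues carried their own markers. Old kidney replicate 2 stood apart with 2644 CPM of hepatocyte markers, against 144 to 252 in the other old kidneys. Macrophage markers moved with age. Their sum was 121 to 150 CPM in young kidney and 597 to 1151 in old kidney, and 788 to 1221 in young liver and 1215 to 2444 in old liver. In kidney 2 of 6 proximal tubule markers passed as lower with age, as did 2 of 6 distal nephron and collecting duct markers. Over all genes 11.5% passed there in either direction. In bulk tissue, more or fewer cells of a type and more or less RNA per cell cannot be told apart.

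**Figure D1:**
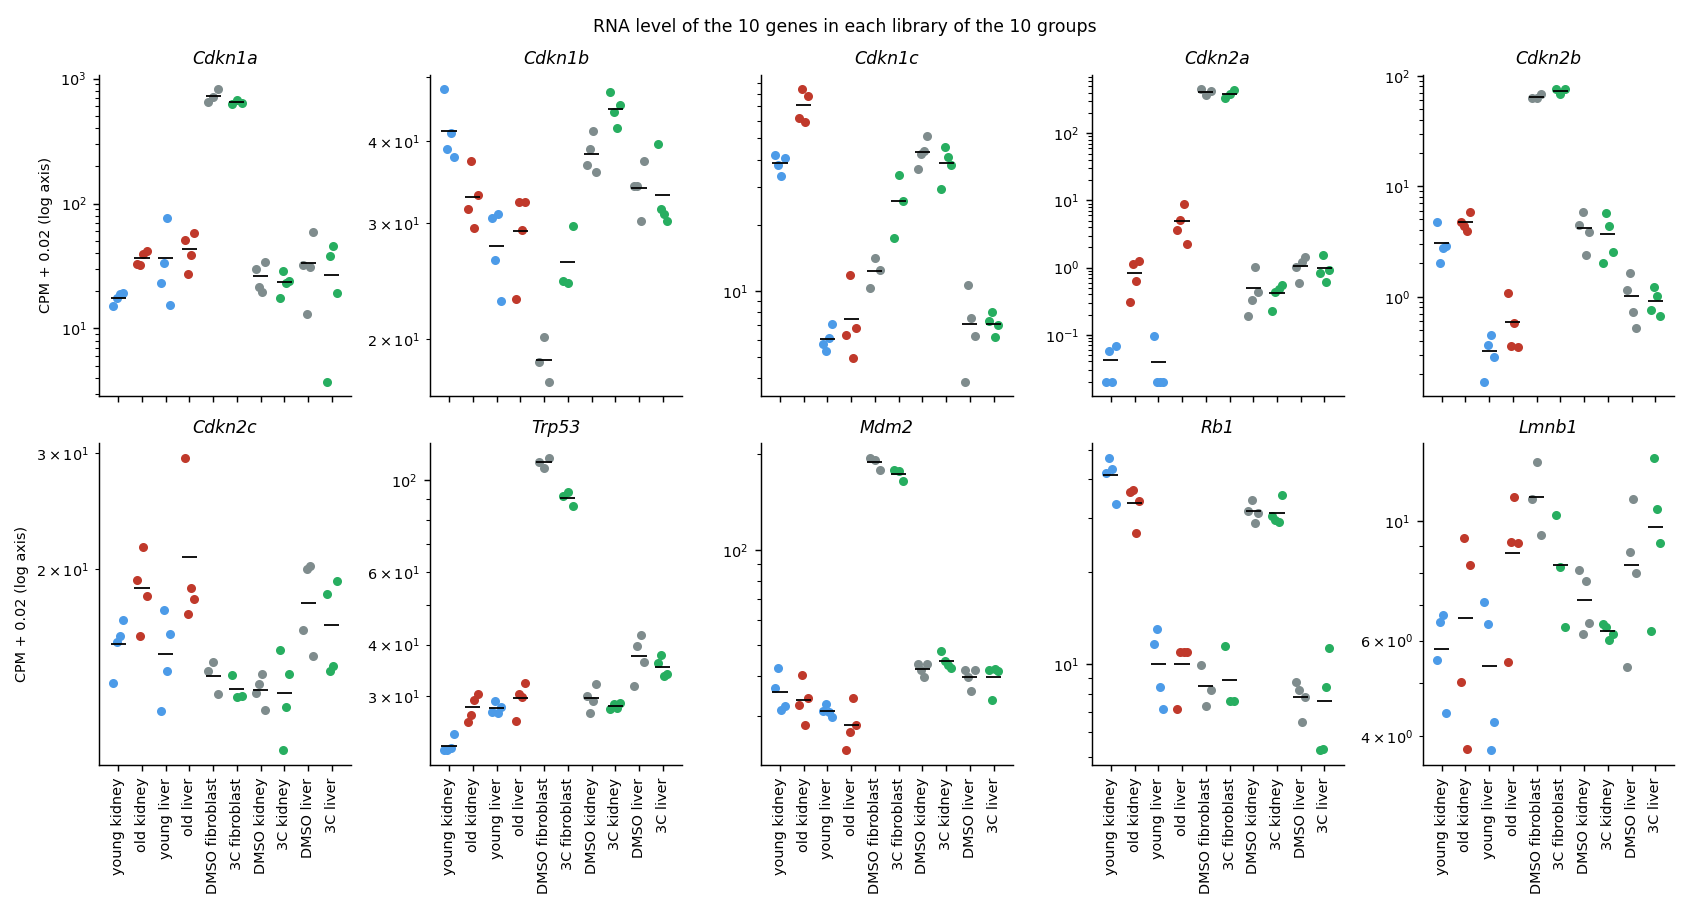
Level of each of the 10 genes in every RNA-seq library, by group; the vertical axis is CPM plus 0.02 on a log scale, points are libraries (n = 4, fibroblasts n = 3) and bars are group means. Cdkn2a spans the widest range, from 0 counts in young liver and young kidney libraries to 333 to 455 CPM in fibroblasts, while Cdkn2c stays between 10.6 and 29.5 CPM in every library.

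Cdkn2a was near absent from young tissue and present in every old library. In kidney, the 4 young libraries held 0, 1, 0 and 1 reads of Cdkn2a, and the 4 old libraries held 7, 38, 16 and 74. In liver, the young libraries held 1, 0, 0 and 0 reads and the old ones 41, 90, 111 and 34. The groups did not overlap in either tissue, and no young library had more than 1 read. As levels, the old kidneys had 0.288, 1.12, 0.620 and 1.22 CPM and the old livers 3.62, 5.04, 8.82 and 2.24 CPM.

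With so few reads in the young groups, the size of the difference was poorly bounded. With reads summed over each group and divided by the TMM effective library sizes, Cdkn2a was 40.6 times higher in old than in young kidney (95% interval of the count ratio, 11.02 to 339) and 245 times higher in old than in young liver (43.6 to 9701), intervals that cover counting error only. In liver it passed edgeR's quasi-likelihood test (adjusted p = 0.00153, Benjamini-Hochberg over 12537 genes), and it was the only one of the 9 genes tested there to pass, when 2.46% of all genes passed and 1.91% passed as higher. The share of all genes depended on single libraries, since 239 passed as higher with all 8 and 48 (without young liver replicate 3) to 453 (without old liver replicate 1) with 7. In kidney its reads were too few for the count filter, and the exact permutation test of log2 CPM gave p = 0.0286, the smallest that 70 splits of 4 against 4 can give. When low counts were not filtered, edgeR gave Cdkn2a in kidney an adjusted p of 0.00507. The age effect on Cdkn2a was not shown to differ between the tissues in the interaction test (edgeR adjusted p = 0.564).

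The count files give 1 value for Cdkn2a and do not separate p16 from p19ARF, so the ATAC-seq peaks at the 2 starts were read apart. The gene lies on the minus strand of chromosome 4 (89274471 to 89294653, GRCm38/mm10). The p16 start is inside that span, 12461 bp downstream of the p19ARF start, and the neighbouring Cdkn2b start is a further stretch away, 28847 bp from the p16 start. The RefSeq sequences (GRCm38.p6) of the 250 bases before the RefSeq start of each are shown because the p16 start differed from the other two in its peaks. The RefSeq start of p16 is the one used for the peaks, while those of p19ARF and Cdkn2b lie 34 bp and 7 bp downstream of the GENCODE starts used for the peaks. The sequences are written 5′ to 3′ on the minus strand, with capitals marking GC boxes (GGGCGG on either strand).
Cdkn2a p16 start, chr4:89282193-89282442, minus strand: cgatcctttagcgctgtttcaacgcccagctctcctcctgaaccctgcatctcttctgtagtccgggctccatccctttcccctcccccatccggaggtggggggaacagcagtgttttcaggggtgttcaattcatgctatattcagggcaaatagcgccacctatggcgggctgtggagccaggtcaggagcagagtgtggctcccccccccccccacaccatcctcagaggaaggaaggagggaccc
Cdkn2a p19ARF start, chr4:89294620-89294869, minus strand: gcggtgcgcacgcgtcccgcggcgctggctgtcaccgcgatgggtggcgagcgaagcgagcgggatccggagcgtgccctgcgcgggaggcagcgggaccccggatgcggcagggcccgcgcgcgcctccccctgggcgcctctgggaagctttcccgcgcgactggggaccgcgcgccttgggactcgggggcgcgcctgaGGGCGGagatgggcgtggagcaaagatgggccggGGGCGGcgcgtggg
Cdkn2b start, chr4:89311033-89311282, minus strand: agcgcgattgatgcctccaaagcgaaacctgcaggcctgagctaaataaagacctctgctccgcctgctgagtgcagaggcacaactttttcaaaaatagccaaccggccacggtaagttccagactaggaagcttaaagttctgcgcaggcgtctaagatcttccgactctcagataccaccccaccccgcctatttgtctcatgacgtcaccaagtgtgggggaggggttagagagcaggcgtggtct

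These 3 windows differed in base composition. The p19ARF window had 78.4% G and C and 2 GC boxes, 48 to 43 and 14 to 9 bases before the RefSeq start, the second of them downstream of the GENCODE start. The p16 window had 60% and the Cdkn2b window 53.6%, with no GC box, where the median of all promoters was 52.4%. A GC box was found in 32.7% of 32851 RefSeq promoter windows of the same length. None of the 3 windows held an AP-1 site in its 7-base form (TGANTCA, 6.75% of all windows) or a CCAAT box (CCAAT, 33.8%). Nor did they hold an E-box (CACGTG, 6.02%) or a p53 half-site (7.13%), each motif being searched on both strands. The longer TGACGTCA, present in the Cdkn2b window, was not searched.

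At the p16 start, the peak calls differed with age in liver. The 3 old livers had a peak within 1 kb of the start, with fold enrichments over local background of 4.16, 5.55 and 4.36, and the 3 young livers had 3.19, 2.06 and no peak. All 3 old values lay above all 3 young values, which was so at 4.23% of 32990 promoters in liver. At a stricter limit, a −log10 q of at least 5, all 3 old livers and no young liver kept the peak. The share of all promoters that did so was not counted. In kidney the p16 start had a peak in 1 of 3 young libraries, at 1.94, and in 0 of 3 old ones, although the old kidneys held Cdkn2a reads. With 3 libraries against 3 no exact test can go below p = 0.1, so the peaks are described without one.

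The p19ARF start had a peak in every library. At a −log10 q of at least 5, this start kept its peak in all 3 old livers but in only 1 of 3 young livers, and in all kidneys. Its peak had fold enrichments of 4.83, 4.42 and 5.06 in young kidney and 5.26, 5.12 and 5.85 in old kidney, without overlap, as at 7.45% of kidney promoters. In liver the young values were 5.07, 3.48 and 3.17 and the old ones 4.75, 4.55 and 4.95, which overlapped. Among the promoters of the 10 genes, p16 in liver, p19ARF in kidney and Mdm2 in liver were those where old lay wholly above young within 1 kb, the Mdm2 separation being lost within 250 bp. At none of the 14 did old lie wholly below young within 1 kb, as it did at 5.54% of all kidney and 3.59% of all liver promoters.

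**Figure D2:**
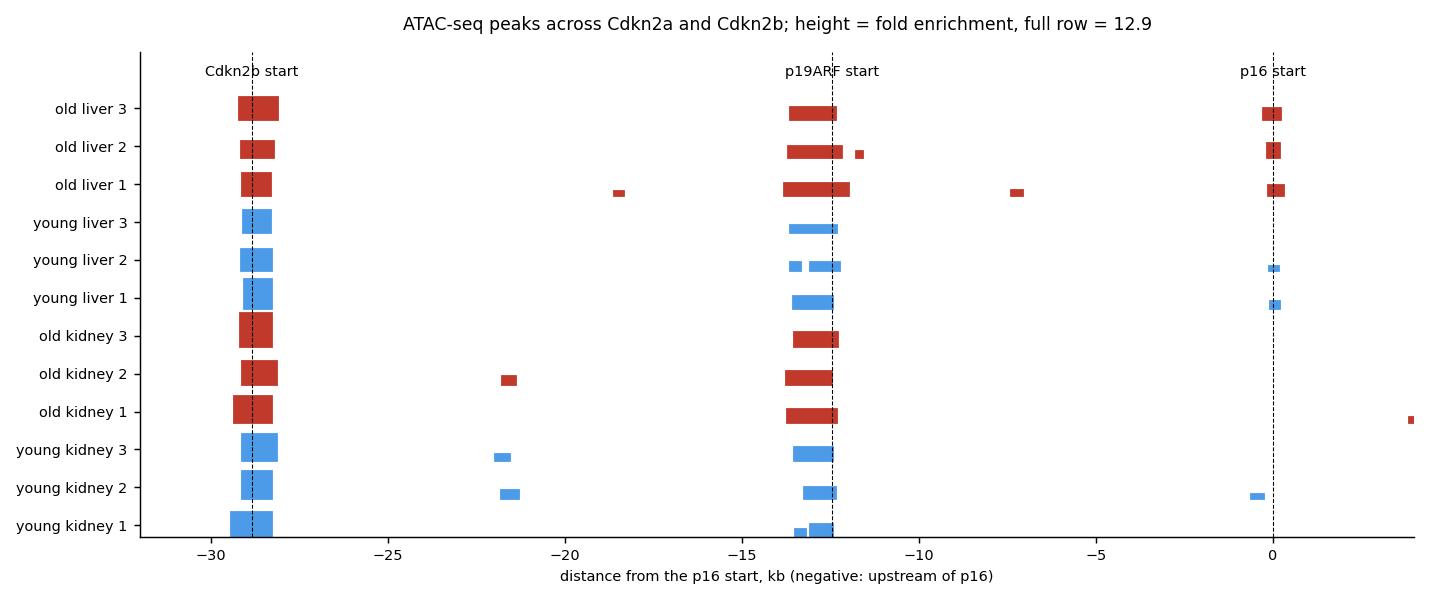
ATAC-seq peaks around the Cdkn2a and Cdkn2b starts, 1 row for each of the 12 libraries; the horizontal axis is the distance in kb from the p16 start (negative is upstream), and the height of a block is its fold enrichment, with a full row equal to 12.9. Peaks stand at the p19ARF and Cdkn2b starts in all 12 libraries, and within 1 kb of the p16 start in all 3 old livers, 2 of 3 young livers and 1 young kidney, with lower peaks in the young.

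Cdkn2b was expressed in kidney and scarcely in liver. Its kidney levels were 4.70, 1.99, 2.75 and 2.85 CPM in young and 4.77, 4.30, 3.95 and 5.82 CPM in old mice. The ranges overlapped and the log2 difference of 0.69 ± 0.28 (SE) did not pass (edgeR adjusted p = 0.134). In liver, young libraries held 2, 5, 5 and 3 reads and old ones 12, 6, 7 and 5, too few for the filter, and the exact permutation test gave p = 0.200. Its promoter had a peak in all 12 ATAC libraries, with fold enrichments of 6.45 to 12.9.

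Cdkn2c, which encodes p18, did not pass in either tissue. It had 13.4 to 16.8 CPM in young and 15.8 to 21.6 CPM in old kidney (log2 difference 0.34 ± 0.13 SE, edgeR adjusted p = 0.116). In liver it had 12.2 to 17.3 CPM in young mice. The old livers had 29.5, 17.1, 18.7 and 18 CPM, and the first of them stood above the rest (log2 difference 0.50 ± 0.23 SE, edgeR adjusted p = 0.329). In 1 fit over all 38 libraries the liver difference passed (log2 0.48, edgeR adjusted p = 0.0420). At the second of its annotated starts, kidney peaks within 1 kb overlapped between the ages, but within 250 bp the old kidneys had fold enrichments of 2.48, 2.42 and 2.33, below 3.84, 3.05 and 3.73 in young kidney. The same values were found when at least 0.5 of a peak had to lie in the 1 kb window. The share of all promoters that separate at these alternative limits was not counted.

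Cdkn1a and Cdkn1c were the genes of the CIP/KIP family that rose in old kidney. Of the 9 genes tested there, these 2 passed, when 11.5% of all 14495 genes passed and 8.15% passed as higher. These shares depended on single libraries, since 1182 genes passed as higher with all 8 and 695 (without young kidney replicate 2) to 1670 (without old kidney replicate 2) with 7. Cdkn1a, the p53-induced inhibitor p21, had 15.2, 17.4, 18.9 and 19.1 CPM in young kidney and 33.0, 32.5, 39.7 and 41.7 CPM in old kidney. Every old kidney was above every young one, with a mean of 17.6 ± 1.81 (SD, n = 4) against 36.7 ± 4.70 (SD, n = 4). The fitted log2 difference was 1.12 ± 0.14 (SE, edgeR adjusted p = 0.00126), a 2.17-fold rise. Without old kidney replicate 2 it was 1.16 (edgeR adjusted p = 0.00158), but in 1 fit over all 38 libraries, which shares the spread of every group, the call was lost (edgeR adjusted p = 0.0817). With a fold above 2 or below 0.5 required as well, Cdkn1a alone of the 9 passed in kidney, against 6.08% of all genes. Some reads could belong to a partner, since 7.68% of its exon length overlaps a gene on the opposite strand and the counting ignored strand.

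In liver the values of Cdkn1a overlapped between the ages. The young livers had 23.1, 33.1, 76.3 and 15.3 CPM and the old ones 50.8, 27.2, 38.8 and 57.5. The old values all lay within the range of the young ones, and the log2 difference of 0.26 ± 0.43 (SE) had an edgeR adjusted p of 0.896. The age effects in kidney and liver were not shown to differ (interaction 0.82 ± 0.50 SE, edgeR adjusted p = 0.505).

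Of 3 starts annotated for Cdkn1a, the second had an ATAC peak within 1 kb in all 12 libraries, at fold enrichments of 2.80 to 4.50, and the other two had none in any library. Old and young peak heights overlapped there in both tissues. The exception was with at least 0.5 of a peak required in the window, where the old livers had 2.48, 3.37 and 2.80. These lay below 3.82, 3.73 and 3.92 in young liver, and the share of all promoters doing so at that limit was not counted. The RefSeq sequence before the second start is shown because it is the one that lay under a peak, and its capitals again mark GC boxes, 104 to 99 and 46 to 41 bases before the start.
Cdkn1a second start, chr17:29093519-29093768, plus strand: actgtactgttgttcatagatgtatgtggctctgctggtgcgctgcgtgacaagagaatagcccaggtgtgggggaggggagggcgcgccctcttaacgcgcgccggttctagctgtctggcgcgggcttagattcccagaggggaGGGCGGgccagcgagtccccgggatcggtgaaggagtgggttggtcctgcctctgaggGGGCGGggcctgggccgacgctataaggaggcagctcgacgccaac
That window had 64.8% G and C. The p53 half-site, absent from it, occurred 2 times in the 250 bases before the first start of Cdkn1a and 1 time each before Mdm2 and Trp53.

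Cdkn1c, which encodes p57, was the other gene that rose. It had 42.1, 37.9, 33.5 and 40.8 CPM in young and 61.7, 83.9, 59.3 and 77.8 CPM in old kidney. The groups did not overlap, and the log2 difference was 0.94 ± 0.15 (SE, edgeR adjusted p = 0.00451). It passed without any single library (log2 differences 0.83 to 1.03). Of its exon length 30.7% overlaps a gene on the other strand, so part of its reads could belong to that gene. Podocytes are a known site of p57, and the podocyte markers summed to 409 to 607 CPM in young and 346 to 590 CPM in old kidney, with 0 of 6 passing the test. In liver Cdkn1c was lower, 5.31 to 7.03 CPM in young and 4.92 to 11.8 CPM in old mice, with overlap (log2 difference 0.32 ± 0.29 SE, edgeR adjusted p = 0.725).

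The ATAC peak at the Cdkn1c start was called in all kidney libraries but not in all livers. In kidney it had fold enrichments of 3.08, 4.84 and 2.06 in young and 4.03, 4.85 and 5.61 in old mice, which overlapped. In liver 2 of 3 young and 1 of 3 old libraries had a peak within 1 kb. Over the 10 genes, 11 of the 14 promoters had a peak in all 3 libraries in young kidney, old kidney and old liver and 10 in young liver, against 48.6%, 46.6%, 42.6% and 43.0% of all promoters in these groups.

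Cdkn1b, which encodes p27, separated the kidney groups in the opposite direction and did not pass. It had 48.0, 38.9, 41.2 and 37.9 CPM in young and 31.5, 37.3, 29.5 and 33.1 CPM in old mice. All old kidneys were below all young ones, and the log2 difference was −0.27 ± 0.12 (SE, edgeR adjusted p = 0.178). In 1 fit over all 38 libraries it passed as lower (−0.34, edgeR adjusted p = 0.0390). In liver it was 22.9 to 31.0 CPM in young and 23.0 to 32.3 CPM in old mice (edgeR adjusted p = 0.911).

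**Figure D3:**
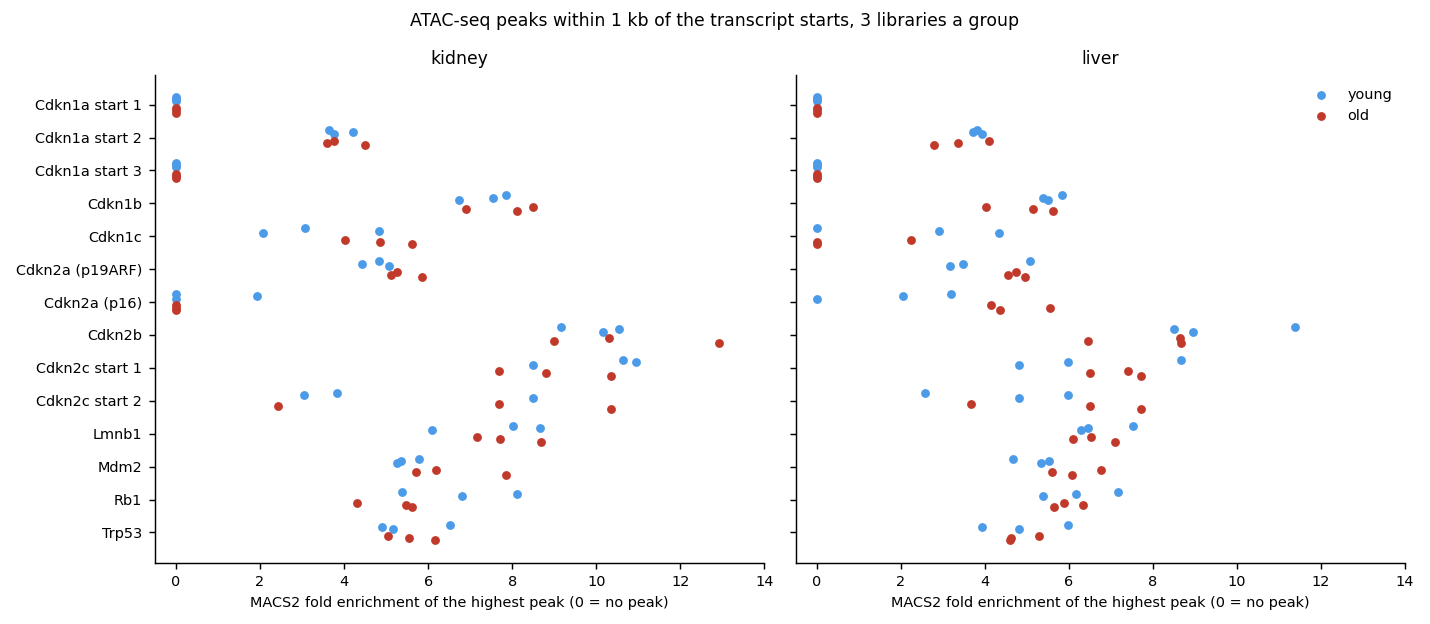
Fold enrichment of the highest ATAC-seq peak within 1 kb of each of 14 starts of the 10 genes, in young and old kidney and liver (n = 3 each); points are libraries, and 0 means no peak. Cdkn2b has some of the tallest peaks, up to 12.9, and the p16 start of Cdkn2a has peaks of 4.16 to 5.55 in old liver.

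Trp53, which encodes p53, lay at the edge of the test in kidney. The young kidneys had 22.2, 22.2, 22.4 and 24.2 CPM and the old ones 26.0, 26.99, 29.3 and 30.4. The groups did not overlap, and the log2 difference of 0.37 ± 0.11 (SE) had an edgeR adjusted p of 0.0516. The call depended on the method, with an adjusted p of 0.0127 in DESeq2, 0.0455 when genes under a mean of 1 CPM were left out, 0.0107 in 1 edgeR fit over all 38 libraries, and 0.0452 in edgeR without old kidney replicate 2. In liver Trp53 was 27.4 to 29.1 CPM in young and 26.2 to 32.4 CPM in old mice (edgeR adjusted p = 0.878).

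Mdm2, a target of p53, overlapped between the ages in both tissues. It had 31.2 to 42.4 CPM in young and 28.0 to 40.2 CPM in old kidney, a log2 difference of −0.02 (95% interval −0.31 to 0.28). In liver it had 29.7 to 32.6 CPM in young and 23.3 to 34.1 CPM in old mice, a log2 difference of −0.13 (−0.46 to 0.20). Its promoter peak was taller in all 3 old livers than in all 3 young ones, with fold enrichments of 6.76, 5.59 and 6.08 against 4.67, 5.52 and 5.34 in young mice. This rested on peak summits away from the start, since within 250 bp of it the old livers had 4.90, 3.997 and 6.08, which overlapped the young values of 4.67, 5.52 and 5.34.

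Rb1 and Lmnb1 showed no change with age that passed. Rb1 had 41.9, 46.9, 43.1 and 33.2 CPM in young and 36.3, 36.8, 26.7 and 33.9 CPM in old kidney (log2 difference −0.24, 95% interval −0.52 to 0.05), and its exons share 14.9% of their length with genes on the other strand. In liver its log2 difference was 0.01 (−0.49 to 0.51). The fitted difference of Lmnb1 was above 0 in both tissues. In liver it had 7.07, 6.43, 3.74 and 4.22 CPM in young and 5.47, 9.13, 11.04 and 9.10 CPM in old mice, a log2 difference of 0.71 ± 0.30 (SE) with overlap (edgeR adjusted p = 0.297). In kidney the log2 difference was 0.28 (−0.32 to 0.87).

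Counted over the 10 genes, 4 lay wholly above in old kidney (Cdkn1a, Cdkn1c, Cdkn2a and Trp53), 1 lay wholly below (Cdkn1b) and 5 overlapped, where 19.6% of the tested genes did not overlap. In liver 1 lay wholly above (Cdkn2a) and 9 overlapped, where 10.1% of the tested genes did not overlap. In the interaction test of age by tissue 0 of the 10 genes passed in edgeR, when 1.72% of all genes passed. Cdkn1b came nearest (−0.41 ± 0.20 SE, edgeR adjusted p = 0.375).

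**Figure D4:**
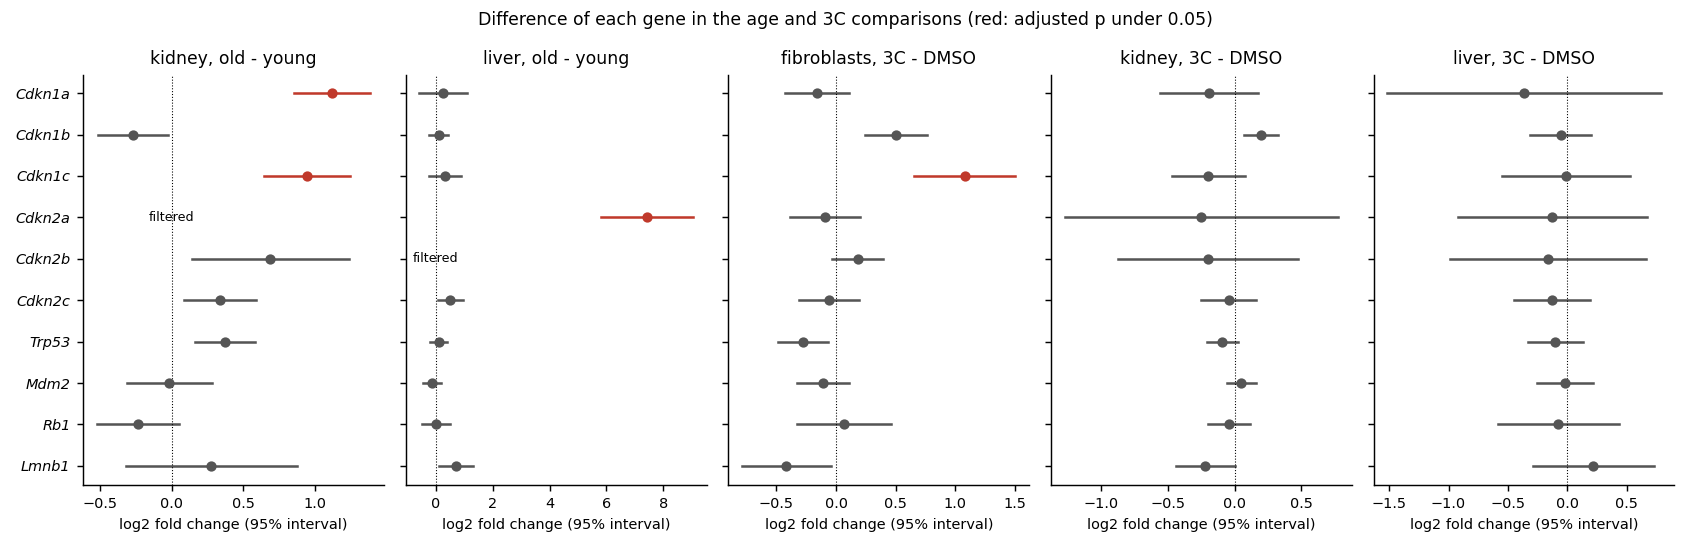
Log2 difference of each gene with its 95% interval in 5 comparisons, old minus young in kidney and liver and 3C minus DMSO in fibroblasts, kidney and liver; red marks an edgeR adjusted p under 0.05. Red points are Cdkn1a and Cdkn1c in kidney with age, Cdkn2a in liver with age and Cdkn1c in fibroblasts, and Cdkn2a in kidney and Cdkn2b in liver with age were not tested because of low counts.

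In skin fibroblasts, Cdkn1c was higher with 3C. It had 10.3, 14.1 and 12.5 CPM with DMSO and 17.6, 33.9 and 25.8 CPM with 3C. All 3 treated libraries were above all 3 controls, and the log2 difference was 1.08 ± 0.22 (SE, edgeR adjusted p = 0.0226). It was the 1 gene of 10 that passed, when 4.22% of all 13449 genes passed and 2.43% passed as higher. Over all genes, 327 passed as higher with all 6 libraries and 97 (without DMSO replicate 3) to 349 (without 3C replicate 3) with 5. The call was lost without DMSO replicate 1 (edgeR adjusted p = 0.0567), DMSO replicate 3 (0.105) or 3C replicate 2 (0.0897), while the log2 difference stayed between 0.84 and 1.29.

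Cdkn1b and Trp53 separated the fibroblast groups too, without passing. Cdkn1b had 18.5, 20.1 and 17.2 CPM with DMSO and 24.5, 24.3 and 29.7 CPM with 3C, a log2 difference of 0.50 ± 0.13 (SE, edgeR adjusted p = 0.0624; DESeq2 adjusted p = 0.0275; edgeR without the count filter, adjusted p = 0.0436). Trp53 had 110.9, 107.2 and 113.2 CPM with DMSO and 91.6, 93.6 and 86.6 CPM with 3C, a log2 difference of −0.28 ± 0.11 (SE, edgeR adjusted p = 0.172). In all, 2 genes lay wholly above and 1 wholly below with 3C, where 25.7% of the tested genes did not overlap.

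Cdkn2a, Cdkn2b and Cdkn1a had their highest levels in the fibroblasts, with or without 3C. Cdkn2a had 455, 368 and 423 CPM with DMSO and 333, 387 and 441 CPM with 3C, a log2 difference of −0.09 (95% interval −0.39 to 0.20). Cdkn1a had 647, 716 and 824 CPM with DMSO and 630, 680 and 636 CPM with 3C (−0.16, interval −0.43 to 0.11). The treated and control values of both genes overlapped. Cdkn2b differed by 0.18 on the log2 scale (−0.03 to 0.40), Cdkn2c by −0.06, Mdm2 by −0.11 and Rb1 by 0.07. Lmnb1 had 10.97, 12.8 and 9.40 CPM with DMSO and 10.2, 8.21 and 6.34 CPM with 3C (−0.42, interval −0.79 to −0.04, edgeR adjusted p = 0.250).

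In kidney and liver of mice given 3C, 0 of the 10 genes passed in edgeR, and 0% of all genes passed in either tissue. At an unadjusted p under 0.05 edgeR called 11.9% of genes in kidney and 3.34% in liver. Of the 10 genes only Cdkn1b in kidney was among these calls (edgeR unadjusted p = 0.0099). DESeq2 passed 66 genes as higher and 148 as lower in kidney, and 4 and 2 in liver, and none of those DESeq2 calls was among the 10. The log2 differences of the 10 genes ran from −0.25 to 0.20 in kidney and from −0.36 to 0.22 in liver.

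Cdkn1b in kidney was the 1 of the 10 genes whose groups did not overlap, and in liver 0 of 10 did so, where 2.28% of the tested genes did not overlap. It had 36.8, 39.0, 41.5 and 35.9 CPM with DMSO and 47.5, 44.3, 41.9 and 45.4 CPM with 3C, and in kidney 7.19% of the tested genes did not overlap. Its log2 difference was 0.20 ± 0.06 (SE, edgeR adjusted p = 0.271). Cdkn2a stayed at a few reads in these mice, with 5, 7, 26 and 11 in DMSO kidney and 5, 12, 12 and 17 in 3C kidney. The liver counts were 15, 8, 15 and 20 with DMSO and 12, 23, 7 and 11 with 3C, and the groups overlapped in both tissues. At this depth the interval of its log2 difference was wide, −1.27 to 0.78 in kidney and −0.92 to 0.67 in liver. Cdkn1a in liver was spread widely, at 31.9, 13.1, 31.0 and 58.8 CPM with DMSO and 3.73, 37.8, 45.6 and 19.2 CPM with 3C. In the interaction test of 3C by tissue 0 of the 10 genes passed in edgeR, as did 0% of all genes, with adjusted p-values of 0.9999.

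Several of these genes differed between kidney and liver, in shares near or below those of all genes. In young mice 6 of 9 tested genes passed between kidney and liver, 4 as higher in kidney and 2 as lower, when 65.4% of all genes passed (35.1% higher, 30.2% lower). In DMSO mice 5 of 10 passed, 3 as higher and 2 as lower, when 71.9% of all genes passed (38.7% higher, 33.2% lower). With a fold above 2 or below 0.5 required as well, 3 of 10 passed in DMSO mice, against 42.3% of all genes. Cdkn1c, Cdkn2b and Rb1 were higher in kidney in both sets. For Cdkn1c the log2 difference, kidney minus liver, was 2.66 ± 0.16 (SE) in young and 2.64 ± 0.24 in DMSO mice. For Cdkn2b it was 3.32 ± 0.45 and 2.06 ± 0.38, and for Rb1 it was 2.02 ± 0.20 and 2.02 ± 0.12. Adjusted p-values of these 6 differences were 0.000390 or less in edgeR.

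Trp53 was lower in kidney than in liver in both sets, by a small margin. Its log2 difference was −0.32 ± 0.12 (SE, edgeR adjusted p = 0.0347) in young mice and −0.32 ± 0.10 (edgeR adjusted p = 0.0151) in DMSO mice. The call in young mice was lost when any 1 of 5 libraries was left out, with adjusted p-values of 0.0515 to 0.107, and when low counts were not filtered (0.0656), and that in DMSO mice without DMSO kidney replicate 2 (0.0508). Cdkn1a was lower in young kidney by −1.08 ± 0.39 (SE, edgeR adjusted p = 0.0274). This rested on single libraries, since without young liver replicate 3, which had 76.3 CPM, the log2 difference was −0.46 (edgeR adjusted p = 0.110), and without young kidney replicate 1 or 2 the adjusted p was 0.0665 or 0.0567. Cdkn1b was higher in young kidney (0.57 ± 0.14 SE, edgeR adjusted p = 0.00366), and Cdkn2c was lower in DMSO kidney (−0.42 ± 0.13 SE, edgeR adjusted p = 0.0105).

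Cdkn2a had a log2 difference of −1.10 ± 0.51 (SE), DMSO kidney minus DMSO liver, and did not pass (edgeR adjusted p = 0.0696). It passed without DMSO kidney replicate 3, the library with 26 reads, at −1.77 (edgeR adjusted p = 0.00540), and without DMSO liver replicate 2, at −1.34 (adjusted p = 0.0445). It also passed with the replicate number as a block, at −1.25 (edgeR adjusted p = 0.0400), and in 1 fit over all 38 RNA libraries, at −1.13 (edgeR adjusted p = 0.0412). In the untreated mice, old liver had a mean of 4.93 ± 2.83 CPM (SD, n = 4) and old kidney 0.812 ± 0.437 CPM (SD, n = 4).

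Ordered over the 10 groups, the mean CPM of Cdkn2a fell from 415 and 387 in DMSO and 3C fibroblasts to 4.93 in old liver, then to 1.04 and 0.957 in DMSO and 3C liver. Below these came 0.812 in old kidney, 0.478 and 0.402 in DMSO and 3C kidney, 0.0214 in young kidney and 0.0188 in young liver. The library ranges of neighbours in this order came apart at 3 places, below the fibroblasts, below old liver and above the young tissues. Cdkn2b followed a different order, with 72.9 and 64.6 CPM in 3C and DMSO fibroblasts, then 4.71 to 3.07 in the 4 kidney groups and 0.989 to 0.300 in the 4 liver groups. Its ranges came apart between fibroblasts and kidney and between kidney and liver.

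Cdkn1a, Mdm2 and Trp53 also had their highest means in the fibroblasts, at 729, 189 and 110 CPM with DMSO. Below them, Cdkn1a ran from 43.6 CPM in old liver to 17.6 in young kidney with every neighbour overlapping, and so did Mdm2, from 44.5 in 3C kidney to 28.0 in old liver. Trp53 came apart at 4 places, between DMSO and 3C fibroblasts, between these and DMSO liver (37.5 CPM), between 3C liver (35.4) and old liver (29.7), and above young kidney (22.8). Cdkn1c was highest in old kidney (70.7 CPM), apart from the other kidney groups (43.3 to 38.4) and 3C fibroblasts (25.8), and DMSO fibroblasts (12.3) and the livers (7.45 to 6.04) lay apart below. Rb1 had 41.3 to 31.1 CPM in the kidney groups and 10.03 to 7.55 CPM elsewhere, and its ranges came apart only between these.

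Cdkn1b, Cdkn2c and Lmnb1 had the lowest ratios of highest to lowest group mean, at 2.41, 1.61 and 2.06. Cdkn1b ran from 44.8 CPM in 3C kidney to 18.6 in DMSO fibroblasts, and only this last group came apart from its neighbour. Cdkn2c ran from 20.8 CPM in old liver to 12.97 in 3C kidney and Lmnb1 from 11.1 in DMSO fibroblasts to 5.36 in young liver, with every neighbour overlapping. Over the 10 genes, 15 of 90 neighbouring pairs came apart.

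Compared per kilobase of exon, the leading gene changed with the tissue. Cdkn1c was the highest of the 10 in all kidney groups, with means of 18.9 CPM per kb in young and 34.7 in old kidney. Cdkn1a led in old liver at 12.3 CPM per kb. It also had the highest mean in young liver, at 10.4 CPM per kb, but without young liver replicate 3 it had 6.71 against 6.995 for Trp53. In DMSO liver (Cdkn1a at 9.48, Trp53 at 9.26) and 3C liver (Trp53 at 8.75, Cdkn1a at 7.48) the lead likewise changed when 1 library was left out, replicate 1 or 4 with DMSO and replicate 1 with 3C. In fibroblasts Cdkn2a led, with 355 CPM per kb for DMSO and 330 for 3C, ahead of Cdkn1a with 205 and 183. In young kidney and young liver Cdkn2a was the lowest of the 10, at 0.0183 and 0.0160 CPM per kb.

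Of the partners of these genes in the CDK, cyclin and RB machinery, 0 of 16 passed in old kidney in edgeR, when 11.5% of all genes passed, with a median log2 difference of 0.07 against 0.02 over all genes. In old liver 1 of 14 tested passed, when 2.46% of all genes did. This was E2f2, an E2F activator of cell-cycle genes, at 2.83 ± 1.17 CPM in old and 0.695 ± 0.261 CPM in young mice (SD, n = 4; log2 difference 2.01 ± 0.46 SE, edgeR adjusted p = 0.0474). Regulators of p53 such as Mdm4 and Atm did not pass in either tissue, 0 of 12 in kidney and 0 of 11 tested in liver.

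Of 20 targets of p53, 5 passed as higher in old kidney and 0 as lower, when 8.15% of all genes passed as higher. The median log2 difference of the 20 was 0.36 against 0.02 over all genes. Those that passed were Phlda3, an inhibitor of Akt signalling, at 22.7 ± 6.50 against 10.4 ± 0.931 CPM (SD, n = 4; edgeR adjusted p = 0.00311), the death receptor gene Fas (log2 difference 0.70), the antiproliferative Btg2 (0.59), the receptor gene Eda2r (2.22) and Bax, which permeabilizes mitochondria (0.50). In old liver 1 of 19 tested passed, as did 2.46% of all genes. This was the growth-arrest gene Gadd45a, at 6.43 ± 2.06 against 2.10 ± 0.870 CPM (SD, n = 4; log2 difference 1.63 ± 0.36 SE, edgeR adjusted p = 0.0435). Fas is also expressed by immune cells, whose markers moved with age, and their part in the result was not tested.

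None of the proliferation genes tested passed as lower in old kidney or old liver. In kidney 3 of 20 passed as higher, when 8.15% of all genes did so, all of them subunits of the MCM helicase that unwinds DNA at replication, Mcm3 (log2 difference 1.13 ± 0.25 SE, edgeR adjusted p = 0.0177), Mcm5 (0.84 ± 0.19) and Mcm6 (0.65 ± 0.17), and the list median was 0.60 against 0.02 over all genes. In liver 1 of 16 tested passed, as did 2.46% of all genes. This was Mki67, which marks cycling cells, at 7.44 ± 2.73 against 2.42 ± 0.811 CPM (SD, n = 4; log2 difference 1.63 ± 0.36 SE, edgeR adjusted p = 0.0435). Macrophage markers rose with them, 8 of 8 passing in kidney and 3 of 8 in liver, as did B and plasma cell markers, 6 of 6 in kidney and 4 of 5 tested in liver. T cell markers passed for 4 of 5 in kidney and 0 of 4 in liver. The part of these cells in the proliferation genes was not tested.

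**Figure D5:**
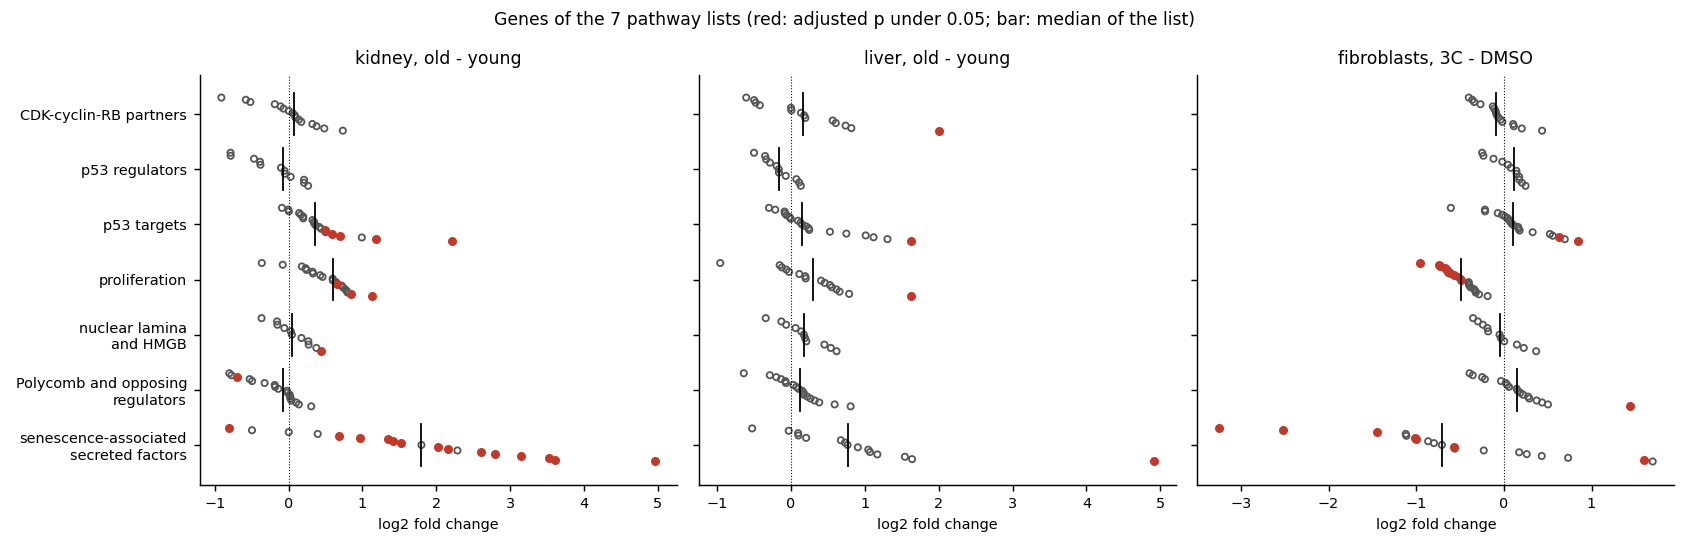
Log2 differences of the genes of 7 lists in kidney with age, liver with age and fibroblasts with 3C; each point is a gene, red where its edgeR adjusted p was under 0.05, and bars are list medians. In kidney the secreted factors have a median of 1.80, and in fibroblasts with 3C the proliferation genes all lie below 0 with a median of −0.49.

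Of the 7 lists, the secreted factors linked to senescence had the most genes that passed in old kidney. Of 24 listed genes 19 were tested, 13 passed as higher and 1 as lower, when 8.15% of all genes passed as higher and 11.5% in either direction, and the median was 1.80 against 0.02 over all genes. The chemokine Ccl8 rose from 0.562 ± 0.194 to 16.4 ± 9.91 CPM (SD, n = 4; log2 difference 4.96 ± 0.54 SE, edgeR adjusted p = 0.000938). The adhesion molecule Icam1 (1.35 ± 0.16 SE, edgeR adjusted p = 0.00114) and the stress cytokine Gdf15 (1.42 ± 0.17, adjusted p = 0.00136) rose too, while the IGF-binding protein Igfbp3 fell from 271 to 149 CPM (−0.80 ± 0.10, adjusted p = 0.00162). In old liver 1 of 15 tested passed, as did 2.46% of all genes. This was the chemokine Cxcl1, with 88.5 ± 90.7 CPM against 3.01 ± 1.998 (SD, n = 4; edgeR adjusted p = 0.0133), an uneven rise. Many of these factors are made by macrophages, whose summed markers rose over the same libraries, and their part in the result was not tested.

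Of the Polycomb group and other regulators of the Cdkn2 locus, 1 of 18 passed in old kidney and 0 of 18 in old liver, against 11.5% and 2.46% of all genes. It was Cbx2, a chromobox subunit of the Polycomb repressive complex 1, at 3.42 ± 0.250 CPM in old and 5.83 ± 0.755 CPM in young kidney (SD, n = 4; log2 difference −0.70 ± 0.18 SE, edgeR adjusted p = 0.0330). The writers of the H3K27 mark Ezh1 and Ezh2 and the complex member Bmi1, known repressors of p16, did not pass in either tissue. Of 11 genes of the nuclear lamina and HMGB proteins 1 passed in old kidney, a share near that of all genes, the emerin gene Emd (0.44 ± 0.12 SE, edgeR adjusted p = 0.0381), and 0 passed in old liver.

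In fibroblasts 3C moved proliferation genes and secreted factors. Over all genes 1.78% passed as lower and 2.43% as higher. Of 20 proliferation genes 9 fell and 0 rose, 0 of 20 had a fitted difference above 0, and the median was −0.49 against 0.01 over all genes. Rrm2, a ribonucleotide reductase subunit, had 31.0 ± 3.73 CPM with 3C and 52.1 ± 6.27 with DMSO (SD, n = 3; log2 difference −0.74 ± 0.13 SE, edgeR adjusted p = 0.0109). The mitotic genes Cdc20 (−0.62 ± 0.12 SE) and Top2a (−0.64 ± 0.13) and the replication gene Mcm5 (−0.67 ± 0.15) fell by like amounts. Of 19 secreted factors tested, 6 fell and 1 rose. The urokinase receptor gene Plaur fell from 18.9 to 9.37 CPM (−1.004 ± 0.12 SE, edgeR adjusted p = 0.00184). The chemokine Cxcl2 fell from 1.09 to 0.113 CPM, and Igfbp3 rose from 59.2 to 179 CPM (1.60 ± 0.29 SE, edgeR adjusted p = 0.0151).

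In the other lists 0 to 2 genes passed in the fibroblasts, where 4.22% of all genes passed. Of 20 p53 targets 2 rose, Gadd45a (0.84 ± 0.15 SE, edgeR adjusted p = 0.0138) and Fas (0.63 ± 0.13, adjusted p = 0.0256). Of 18 regulators of the Cdkn2 locus 1 rose, Cbx7, a Polycomb chromobox protein known to repress Cdkn2a, from 1.69 to 4.58 CPM (1.44 ± 0.27 SE, edgeR adjusted p = 0.0160). The CDK, cyclin and RB list (0 of 16), the p53 regulators (0 of 12) and the lamina list (0 of 11) had no gene that passed in edgeR. Macrophage-type markers summed to 224 to 289 CPM with DMSO and 85.3 to 134 with 3C, with 2 of 8 lower, and T cell markers were at or near 0 in both. In kidney and liver with 3C, no gene of the 7 lists passed in edgeR.

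The genes with the most similar pattern were sought over the 38 libraries, after centring each library on its tissue and set. These Pearson correlations across 13390 genes are descriptions, since libraries of a group share their treatment and tissue. For Cdkn2a the most similar were Gdf3 (r = 0.896), Rasa4 (0.873) and Sult2a3 (0.871), and for Cdkn1a they were Tubb2a (0.861), Loxl4 (0.790) and Ppard (0.756). For Cdkn1c they were Uba7 (0.736), Ifi207 (0.715) and Slco2b1 (0.695), and for Trp53 Lcp1 (0.729), Slc15a3 (0.724) and Anxa5 (0.722). The nearest gene to Cdkn1b was Mtss1 (0.812), to Cdkn2b Wnt4 (0.714), to Cdkn2c Ier5l (0.796), to Mdm2 Naa30 (0.774), to Rb1 G3bp2 (0.803) and to Lmnb1 Dck (0.812). None of these nearest genes was another of the 10.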

How the data were processed

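RNA-seq was made from 38 samples in 10 groups and ATAC-seq from 12 samples in 4 groups. Each sample was placed in its group, and given its replicate number, from its label. The mice were female in the study's methods.

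The deposited RNA-seq values are counts, whole reads per gene, which the authors obtained by trimming (Trimmomatic 0.39), alignment to mm10 (HISAT2 2.2.1) and unstranded counting (HTSeq-count 0.12.4). The deposited ATAC-seq peak lists give fold enrichment as a ratio over local background, from MACS2 calls the authors made per library after Bowtie2 2.3.5.1 alignment and removal of duplicates. The same deposited lists give −log10 p and −log10 q of each peak. Close paralogs and genes overlapping on opposite strands can share or lose reads in such counts. Of the 24984 gene names, 24534 were found in GENCODE vM21, which supplied positions and exon lengths. No peak lay beyond a chromosome end of GRCm38.

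Each comparison was fitted on its own groups with edgeR 4.0.16 (R 4.3.3; TMM, filterByExpr with a minimum count of 10, quasi-likelihood F test), and passed means a two-sided Benjamini-Hochberg adjusted p under 0.05 over all genes tested. Fold differences come from these fits and printed CPM from TMM factors over all 38 libraries. The 95% intervals of log2 differences are normal intervals from the SE. Count ratios have exact 95% intervals for counting error. Genes removed by the count filter were tested with an exact two-sided permutation test of log2 CPM (prior count 2). A promoter had a peak where a deposited peak overlapped the 1 kb on either side of an annotated start by at least 1 bp, and starts within 1 kb were merged. Depth was 14.2 to 43.7 M counts per library. Of 54 replicate pairs none was alike within sampling noise. The scripts were tested on simulated data.

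All 10 genes were named for age in both tissues and for 3C in fibroblasts. In the other comparisons the genes not named were covered by counts or ranges. From each pathway list, up to 4 genes that passed with the smallest p were named in the age, 3C and interaction comparisons (those of kidney against liver are not described), and Bax was added after its value was seen. The result of 1 gene that this rule named is not reported here. For likeness, the 1 to 3 genes with the highest correlation and a mean of at least 1 CPM were named. The genes and lists were chosen with earlier results of these data known. Young kidney and young liver were taken as paired by replicate number, since all 4 pairs of same-numbered samples deviated together (r = 0.104 to 0.452). The labels do not give this pairing. In DMSO kidney and liver all 4 correlations were positive too (0.012 to 0.126), but these were not taken as paired. In the other comparisons the correlations took both signs. Promoter sequences came from RefSeq (GRCm38.p6) and matched 7 of the 10 genes. The alternatives tried were DESeq2 1.42.0, other scaling and filters, a replicate block, 1 fit over all libraries, each library left out, and other peak limits.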

Additional observations from a re-analysis of the deposited data

Results flagged for a closer look

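Within groups of 4, a single library stood apart from the rest, by Dixon's test, in 6 of 80 cases, where chance gives about 1 in 20. Cdkn1b had 39.64 CPM in 3C liver replicate 1, above the other 3 livers at 30.2 to 31.6. Cdkn2a had 0.0752 CPM in young liver replicate 1, which is 1 read against 0 in the others. Cdkn2c had 29.45 CPM in old liver replicate 1, and Rb1 had 7.142 CPM in the same library, below 10.9 to 10.96 in the other old livers. Trp53 had 24.23 CPM in young kidney replicate 4, and without that library its kidney age difference passed (edgeR adjusted p = 0.0458). Mdm2 had 33.62 CPM in 3C liver replicate 2, below 41.3 to 42.1 in the others.

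Of the 118 pathway list genes tested, 3 passed the age by tissue interaction test (kidney minus liver, edgeR quasi-likelihood test), as did 1.72% of all genes. The log2 interaction was −1.56 ± 0.25 (SE, adjusted p = 0.00527) for Cbx2, 1.98 ± 0.41 (adjusted p = 0.0209) for the chemokine Cxcl10 and −0.82 ± 0.19 (adjusted p = 0.0399) for Igfbp3.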

How the results depend on the processing

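Of 593 recomputed results, 556 kept their direction, their side of the threshold or their count within 1.5 times, and 0 reversed. Single genes gave 413 of these, from 29 differences whose interval, in the fit of their own groups, left out 0. Genes with differences near 0 were thus not followed, so the absence of reversals does not cover them. With 3C in kidney and liver, and in both interaction tests, 0 of the 10 genes passed in every setting. Such unchanged counts of 0 were among the results that kept. Among the 10 genes, 2 passed with age in kidney, 1 when a fold above 2 or below 0.5 was also required, 4 in 1 fit over all 38 libraries, and 2 to 4 when single libraries were left out. With age in liver 1 passed, and 2 in that joint fit. With 3C in fibroblasts 1 passed, 2 with DESeq2, 2 without a filter on low counts, and 0 to 1 when single libraries were left out. In DMSO mice 5 passed between tissues, and 3 with the fold required. The causes were not tested. Genes called over the whole table moved too, from 1182 higher and 487 lower with age in kidney to 1611 and 1385 with DESeq2 and 1657 and 1530 in the joint fit, and in liver from 239 and 70 to 619 and 239 with DESeq2 and 1175 and 558 in the joint fit. In fibroblasts 327 and 240 became 577 and 493 with DESeq2, 524 and 386 without the filter and 191 and 98 in the joint fit. Single libraries moved these counts as well. With age in kidney they ran from 695 and 138 without young replicate 2 to 1670 and 1770 without old replicate 2, the library with hepatocyte markers, and each of the 8 libraries moved 1 of the counts by over 1.5 times. In liver they ran from 48 and 29 without young replicate 3 to 453 and 135 without old replicate 1, and only leaving out old replicate 4 moved neither count that far. In fibroblasts they ran from 97 and 58 without DMSO replicate 3 to 349 and 239 without 3C replicate 3, and the age by tissue calls from 65 and 49 without young kidney replicate 2 to 201 and 255 without old liver replicate 1, against 127 and 131.

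With the replicate block, all-gene calls were 844 and 213 with age in kidney and 91 and 48 in liver, and 304 and 179 in fibroblasts. Correlations of same-numbered libraries were −0.28 to 0.285 in kidney with age, −0.31 to 0.334 in liver with age, −0.118 to 0.332 in fibroblasts, −0.082 to 0.017 in kidney with 3C, −0.115 to 0.221 in liver with 3C and 0.012 to 0.126 in DMSO tissue. Under the block Cdkn2a passed between DMSO kidney and liver (log2 −1.25, edgeR adjusted p = 0.0400), which made 6 of 10 genes there. The block changed no other call of the 10 genes, including those in the young tissues taken as paired. The low Cdkn2a and Cdkn2b counts limit what could be detected in liver and young kidney.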
